A study of Drosophila melanogaster with 2 samples.

Results

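The 8 core genes of the Drosophila circadian clock, per, tim, cry, Pdp1, vri, cyc, Clk and cwo, were followed through the binding map of CG11617, a homeobox protein. They were taken by name and make up 8 of the 13945 protein-coding genes on the 6 arms 2L, 2R, 3L, 3R, 4 and X. The names were chosen after this map was known to place peaks at many of their promoters, so the presence and strength of peaks are descriptions and carry no test. Chromatin immunoprecipitation with an anti-GFP antibody and sequencing (ChIP-seq) was done on whole adult flies, with males and females pooled, at an age that the labels give as unknown. The flies were of the strain CG11617-GFP, a line stably carrying CG11617 with a C-terminal GFP, and their chromatin was sonicated. A single group of 2 biological replicates, numbered 2 and 3, was assayed. No control sample was analysed here, the labels give no time of day, and binding confined to the few clock neurons cannot be told apart from weak binding in many cells.

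The fly clock is a loop of transcription and repression. CLK and CYC, a pair of basic helix-loop-helix proteins, bind the E-box letters CACGTG and activate per, tim, vri, Pdp1 and cwo. PER and TIM accumulate and then block CLK and CYC, while CRY, a blue-light photoreceptor, leads to the loss of TIM in the light. VRI and PDP1 are leucine-zipper proteins that repress and activate Clk, and CWO competes at E-boxes. The loop runs in brain clock neurons and in many peripheral tissues, among them the eye, the fat body and the Malpighian tubules.

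The authors' peak caller gave each entry a signal, a value with no unit that can be compared within a list but is not scaled between lists. The optimal set kept by the authors' filter on irreproducible discovery rate (IDR, which scores how well ranks repeat between replicates) held 5777 entries with pooled signals from 163 to 5197 and a median of 263. They are the 5777 strongest rows of a pooled list of 30000 candidate entries, each with a signal above every entry outside the set, and each replicate has its own list of 30000. Replicate 3 signals were higher, with a median ratio to replicate 2 of 2.22 over 5760 IDR entries matched in both. This is 1.15 on the log2 scale, with an SD of 0.57 around it across entries. A replicate ratio is given below as its departure from that median. All coordinates are dm6, counted from 1. Summits were read as offsets counted from 0, and since 2 IDR summits then fall past the end of their entry, the offsets may count from 1, which would shift every summit and printed window by 1 bp. Here a start is a transcription start of a protein-coding transcript in Ensembl release 115.

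Binding in the IDR set was found at 7 of the 8 loci, and Clk alone had none. Near a start, at most 500 bp away, 6 members had an IDR summit: per, tim, cry, Pdp1, vri and cyc. Of all protein-coding genes, 30.0% did, and since the members were chosen from this same map nothing is read from the comparison. Counting the whole gene as well as its starts gave 7 members and 32.9% of all genes. The gene cwo had an IDR summit in its intron only. The 7 loci held 28 IDR entries in 21 separate regions that together covered 11398 bp. Of the 28 summits, 11 lay within 500 bp of a start of the member, 15 in introns farther away, 1 in a 5' UTR and 1 in a 3' UTR. The median pooled signal was 364 over the 11 summits near a start and 286 over the 15 in introns. The weakest member entry in the IDR set had a pooled signal of 183, in Pdp1, and the strongest member entry outside it had 162, in vri, just under the lowest signal of the set, 163. Candidate entries, which include background, lay near a start of all 8 members in the pooled list and in each replicate, as they did for 61.6% of genes in the pooled list, 59.8% in replicate 2 and 61.6% in replicate 3.

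The sequence at the strongest summit near a start is shown for the 6 genes bound there, because these bases hold the summits and let the members be compared. Each is read in the direction of its gene, with 50 bp on either side of the summit, from the Release 6 genome of RefSeq. Capitals mark matches on either strand to the searched motifs that occurred in these windows, namely TAACA and the letters TAATTA and also TATAAA.
cry, chr3R:19211845-19211945, plus strand: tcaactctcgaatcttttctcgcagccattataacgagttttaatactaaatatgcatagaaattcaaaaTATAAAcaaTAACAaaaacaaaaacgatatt
tim, chr2L:3507642-3507742, minus strand: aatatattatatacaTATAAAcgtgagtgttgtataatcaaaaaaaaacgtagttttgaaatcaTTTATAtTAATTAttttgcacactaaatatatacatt
Pdp1, chr3L:7855913-7856013, minus strand: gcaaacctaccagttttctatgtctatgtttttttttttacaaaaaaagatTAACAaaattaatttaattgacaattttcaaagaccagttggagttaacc
per, chrX:2685297-2685397, plus strand: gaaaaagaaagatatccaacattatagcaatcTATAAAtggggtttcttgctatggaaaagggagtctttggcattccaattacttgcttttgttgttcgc
vri, chr2L:5299439-5299539, plus strand: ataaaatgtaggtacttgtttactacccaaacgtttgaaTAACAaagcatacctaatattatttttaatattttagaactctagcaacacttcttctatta
cyc, chr3L:19815617-19815717, minus strand: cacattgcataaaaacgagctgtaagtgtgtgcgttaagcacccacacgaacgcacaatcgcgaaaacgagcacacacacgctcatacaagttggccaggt
In 5 of the 6 windows the letters A and T prevailed more than at the median IDR summit. The GC content was 17.8% at tim, 25.7% at cry, Pdp1 and vri, 35.6% at per and 49.5% at cyc, where no searched motif matched. Over all IDR summits the median GC content of such windows was 36.6%, and over the 28 member summits it was 29.7%. The means were closer, 36.9% and 33.9%. The sets also differ in position, since 11 of the 28 lay near a start against 3841 of all 5777, and 14 of the 28 are in Pdp1.

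The strongest entry at any clock gene lay just upstream of cry, which encodes the photoreceptor. Its pooled signal was 1823, with 615 in replicate 2 and 1224 in replicate 3. It ranked 47 in the pooled list, 36 in replicate 2 and 52 in replicate 3. The gene has 1 annotated start, of transcript cry-RA (3R 19212154 to 19215442, plus strand), and the summit lay 259 bp upstream of it in the pooled list and in replicate 2, and 235 bp upstream in replicate 3. Of the 4178 genes with an IDR summit near a start, cry had a summit that ranked 41 by pooled signal. The genes next to it in that order were Hsp83, a heat shock chaperone gene (1825, with 628 and 1197 in replicates 2 and 3), and Chro, which encodes the chromatin protein Chromator (1814, with 572 and 1249).

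The region at cry, 3R 19211612 to 19212254, carried another summit 30 bp upstream of the start, with a pooled signal of 238. Replicate 2 resolved it as an entry of its own, with a signal of 179. Replicate 3 had a single summit across the whole region, so the nearest replicate 3 entry was the same one that matched the stronger summit, and no replicate ratio can be read there. A further IDR entry lay in the intron, 628 bp downstream of the start (3R 19212644 to 19212885), with 215 in the pooled list, 73.2 in replicate 2 and 147 in replicate 3. With 3 IDR entries in 3.29 kb, cry held more than did 98.5% of the 5903 genes of similar length (from 0.5 to 2 times its own). By the same measure, each against genes of its own length, the share with fewer entries was 99.4% for Pdp1, 95.6% for vri, 91.7% for cyc, 73.4% for tim, 52.3% for per and 50.2% for cwo, and 0% for Clk, which had none.

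**Figure D1:**
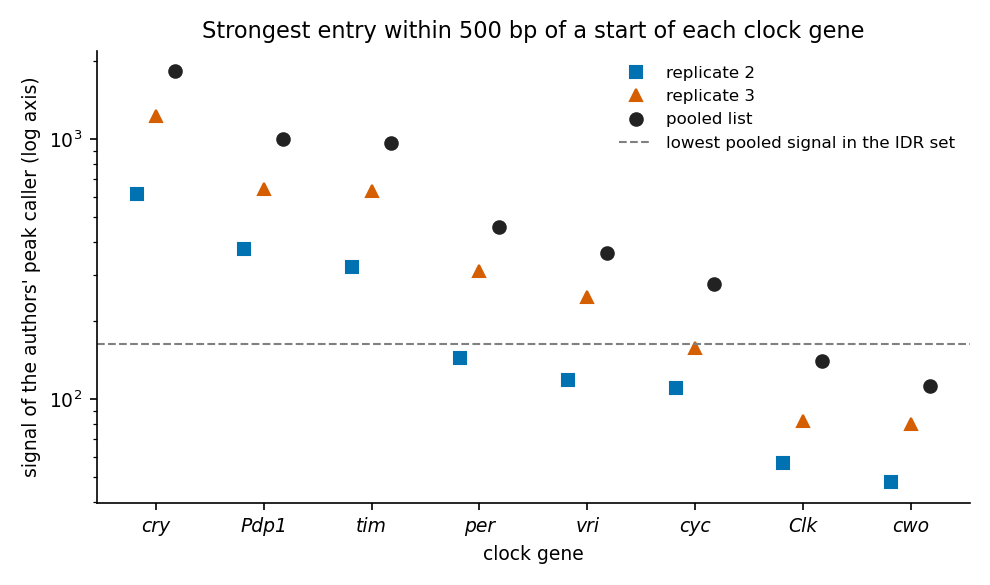
Signal of the strongest entry within 500 bp of any start of each clock gene (log axis) in the replicate 2 list (squares), the replicate 3 list (triangles) and the pooled list (circles), with the lowest pooled signal of the IDR set as a dashed line. Pooled signals fall from 1823 at cry to 112 at cwo, and Clk and cwo lie below the line, which applies to the pooled list only.

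At tim, which encodes the light-sensitive partner of PER, strong binding lay inside the cluster of alternative starts. The gene (2L 3493986 to 3508119, minus strand) has 3 starts spread over 901 bp. A single IDR region, 2L 3507310 to 3508054, covered most of the sequence between the outer starts. Its main summit had a pooled signal of 963, with 322 in replicate 2 and 632 in replicate 3, and ranked 261, 248 and 284 in the pooled list and the replicates. The summit was 88 bp upstream of the middle start, that of tim-RO, and inside intron 1 of tim-RM, tim-RP and tim-RR, 427 bp downstream of their start. It was 474 bp upstream of the most downstream start, which 6 of the 10 annotated transcripts share. In replicate 3 no summit lay within 500 bp of that last start. The middle start was thus the nearest, while all 3 fell within 500 bp of the pooled summit.

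A weaker tim summit lay 210 bp downstream of the first start, in exon 1 of tim-RM and tim-RP and intron 1 of tim-RR. Its pooled signal was 241, and it was the member entry on which the replicates differed most. Replicate 2 gave it 173, at rank 908, and replicate 3 gave it 75.6, at rank 9295. The ratio of replicate 3 to replicate 2 was 0.44, or -2.34 from the median on the log2 scale, a departure larger than that of 99.6% of IDR entries. The main tim summit, in the same region, departed by -0.18. Matched instead to the highest overlapping entry of each replicate, which is that of the main summit, the weaker one departed by -0.17.

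At per, which encodes the repressor partner of TIM, 1 IDR entry lay upstream of the single start that per-RA and per-RB share (X 2685580 to 2692780, plus strand). The entry spanned X 2685089 to 2685503, with its summit 233 bp upstream. Its pooled signal was 458 at rank 1183, with 144 in replicate 2 (rank 1255) and 311 in replicate 3 (rank 1224). The replicate ratio departed from the median by -0.03 on the log2 scale, and the replicate summits were 29 bp apart. A further candidate summit 22 bp upstream of the start had a pooled signal of 124 and was not in the IDR set. Both remaining pooled candidates at per lay in the first intron, at 53.6 and 48.1. Thus per and tim, whose proteins act as a pair, both had their IDR summits near a start and none deeper in the gene, and the tim summit was the stronger in both replicates.

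Pdp1, the activator of Clk in the second loop, held the most extensive binding among the members. The gene (3L 7811458 to 7867369, minus strand) is 55.9 kb long, with 4 starts and 13 annotated transcripts. It contained 14 IDR entries in 10 separate regions covering 6112 bp. Only 6 of all 13945 genes, Pdp1 included, held as many or more. Among the 647 genes of similar length (from 0.5 to 2 times its own) the median was 0 IDR entries, and 99.4% had fewer. The pooled list had 52 entries in the gene, against 55 in replicate 2 and 52 in replicate 3.

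The 4 starts of Pdp1 differed in binding. Numbered along the gene, the second, used by 7 of the 13 transcripts (Pdp1-RB, RG, RI, RK, RM, RN and RP), had the strongest entry near a start. Its summit lay 415 bp upstream, with a pooled signal of 1004, and with 377 in replicate 2 and 644 in replicate 3. The same wide region, 3L 7854657 to 7856777, had another summit 483 bp downstream (328, with 107 and 200). The third start, of Pdp1-RD and Pdp1-RJ, had a summit 353 bp upstream with a pooled signal of 590 (225 and 363) and an adjoining one 599 bp upstream with 519 (188 and 325). The first and the fourth starts, of Pdp1-RF and Pdp1-RO and of Pdp1-RC and Pdp1-RL, had candidate entries only, whose strongest pooled signals were 100.5 and 75.2. In replicate 2 these were 63.9 and 26.3, and in replicate 3 they were 80.5 and 60.6. The second and the third starts thus had the higher signals in both replicates.

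The strongest Pdp1 entry was not at a start. It lay 4475 bp downstream of the second start in an intron of 9 transcripts, at 3L 7850712 to 7851449, and the pooled list gave it 1115. Replicate 2 gave it 359 and replicate 3 gave it 750, at ranks 178 and 195. A pair of entries in the first intron of Pdp1-RF and Pdp1-RO, 3469 and 3251 bp downstream of the first start, reached 821 (298 and 515) and 542 (163 and 382). The other 6 entries more than 1 kb from a start and outside this pair and the strongest region had pooled signals from 183 to 246, among them 1 in the 3' UTR shared by all transcripts, at 183, and 1 in a 5' UTR exon of Pdp1-RC, at 223. Beyond the 3' end of the gene, 1689 bp downstream, an IDR entry of 607 lay within 500 bp of a start of CG32369, and it was not counted for Pdp1.

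vri, the repressor counterpart of Pdp1, was bound at 1 of its 3 starts. The gene (2L 5288944 to 5311223, plus strand) held 5 IDR entries in 22.3 kb, more than did 95.6% of 1398 genes of similar length (from 0.5 to 2 times its own). The bound start was the middle one, of vri-RC, with a summit 158 bp upstream and a signal of 364 in the pooled list, 118 in replicate 2 and 247 in replicate 3. The upstream start of vri-RE had a strongest pooled candidate of 93.6 and the downstream start of vri-RA, vri-RD and vri-RF one of 100.4, with a summit 9 bp downstream. Both are below the IDR set. The strongest vri entry lay in the first intron of vri-RE, 4419 bp downstream of its start, with a pooled signal of 585 (190 and 400). Another intronic entry, 2554 bp upstream of the last start, had 431 (90.0 and 341) and departed from the median replicate ratio by 0.77 on the log2 scale. The remaining intronic entries had 253 and 207.

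**Figure D2:**
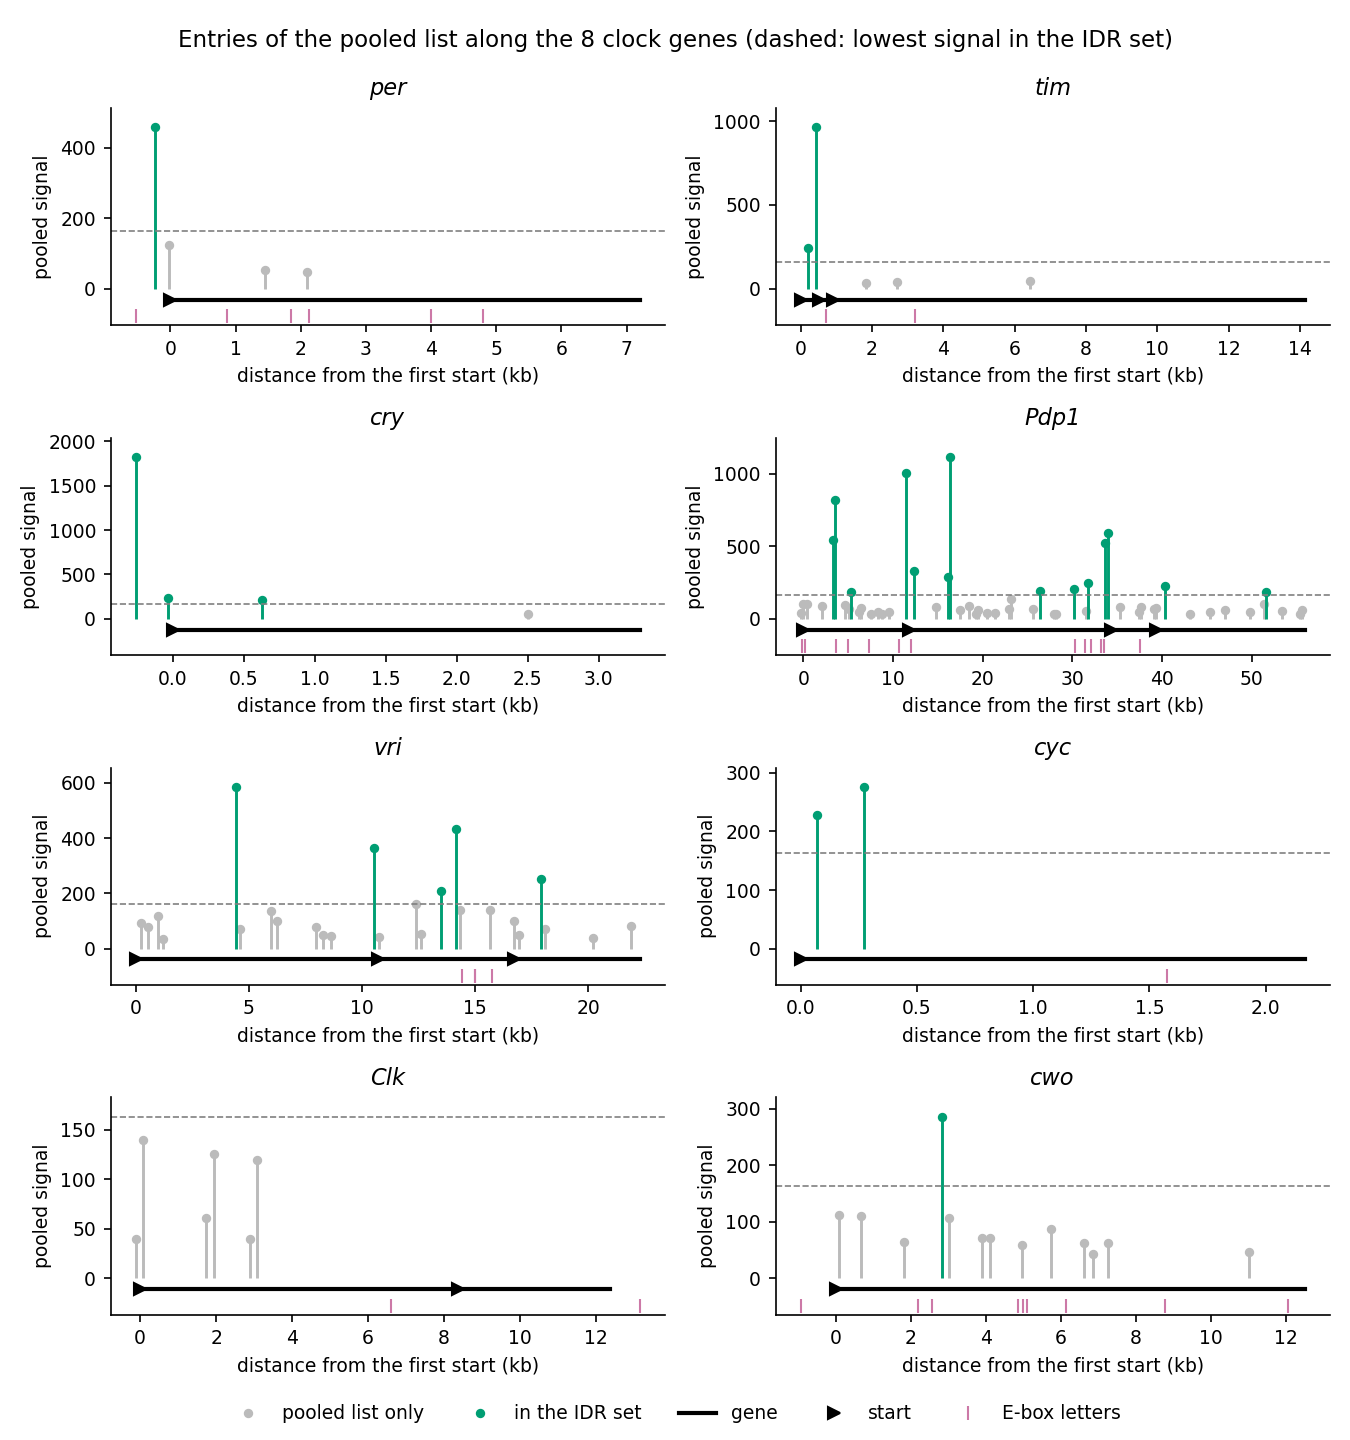
Pooled signal of every candidate entry along each clock gene against distance from its first start in the direction of transcription (kb), with green stems for entries in the IDR set, grey stems for the others, the gene as a black bar, starts as arrowheads, CACGTG letters as pink ticks and the lowest signal of the IDR set as a dashed line. Pdp1 carries 14 green stems along 55.9 kb, tim and per carry theirs near the starts, and every stem at Clk is below the line.

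The activators cyc and Clk, whose proteins work as a pair, differed. The short gene cyc (3L 19813770 to 19815938, minus strand) had 2 IDR summits, both downstream of its single start. The stronger, 271 bp downstream in the intron of cyc-RA, had a pooled signal of 276 (110 in replicate 2 and 158 in replicate 3). The other, 72 bp downstream in exon 1, had 227 (72.6 and 139). They ranked 2678 and 3584 in the pooled list. Stronger IDR summits of 561 and 373 lay 2017 and 2217 bp upstream of cyc, within 500 bp of starts of Fibp and Deaf1, and were not counted for cyc.

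At Clk (3L 7763233 to 7775603, minus strand) the 6 pooled candidates were all outside the IDR set. The strongest, 86 bp downstream of the start of Clk-RA, Clk-RD and Clk-RF, had a pooled signal of 140 at rank 7014. Replicate 2 gave 56.9 there at rank 5457, and replicate 3 gave 82.2 at rank 8508. The next were in the first intron, at 125 and 119. No list had an entry within 500 bp of the second start, that of Clk-RG and Clk-RH. In replicate 2 alone the Clk promoter entry was within the 5777 strongest of its list, and in replicate 3 it was not. Clk lies 35.9 kb from Pdp1 on the same strand of 3L, so the members with 0 and with 14 IDR entries are close neighbours on the chromosome.

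cwo, the E-box repressor, was bound within its first intron. The IDR entry at 3R 10390920 to 10391213, 2823 bp downstream of the single start of cwo-RA, cwo-RB and cwo-RC, had a pooled signal of 286, with 93.4 in replicate 2 and 192 in replicate 3. It ranked 2551, 2572 and 2645 in the pooled list and the replicates. At the start itself (3R 10388258 to 10400752, plus strand) the strongest candidate had 112 in the pooled list, 47.8 in replicate 2 and 80.2 in replicate 3. The locus had 13 pooled candidates in all, of which 12 were outside the IDR set.

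Counted by start, 9 of the 16 starts of the 8 genes had an IDR summit within 500 bp, against 28.2% of all 19607 gene starts. Among the 12 starts of members with alternative starts, 6 did, and 3 of these are the tim starts that share 1 peak. The background for starts of genes with alternatives was 33.3%. The order of the strongest entry near a start was cry, Pdp1, tim, per, vri and cyc, then Clk and cwo outside the IDR set. This order was the same in both replicates. Pdp1 and tim, neighbours in it, differed little: 377 and 322 in replicate 2, and 644 and 632 in replicate 3. Clk and cwo were also close, at 56.9 and 47.8 and at 82.2 and 80.2. In replicate 2 vri and cyc were close too, at 118 and 110, and in replicate 3 they were farther apart, at 247 and 158.

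The definition of a bound start mattered for Pdp1 and Clk. With a window of 250 bp, 5 members had an IDR summit near a start and Pdp1 did not (25.4% of all genes). With 1000 bp there were 6 (32.8% of all genes), and 6 when any overlap of an entry with the 500 bp window counted (31.3% of all genes). In the stronger part of the IDR set, above its median signal, there were also 6 (17.9% of all genes). When the 5777 strongest entries of a single replicate took the place of the IDR set, replicate 3 gave 6 (30.3% of all genes) and replicate 2 gave 7, Clk being added (28.1% of all genes).

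None of the 11 member summits near a start had a start of another protein-coding gene within 500 bp. Among all 3841 IDR summits near a start, 38.7% had starts of at least 2 genes in that window. Within 500 bp, each clock promoter summit thus had starts of 1 coding gene only. Starts of non-coding genes were not searched, and which gene a peak acts on was not tested.

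With the weaker tim summit included, the replicate ratios of the member entries spread about as widely as those of all IDR entries. Of the 28, 26 had an entry of their own in each replicate. Their departures from the median ratio ran from -2.34 to 0.88 on the log2 scale with a median of -0.16 and an SD of 0.62. The lowest is that of the weaker tim summit, which widens the SD, and the next lowest was -0.86, in Pdp1. Of the 26, 19 were within 0.57, the SD over all IDR entries, of the median over all IDR entries. Of all matched IDR entries, 76.4% departed by at most 0.54 and 80.2% by at most 0.61. One of the 26, the weaker tim summit, departed by more than 2-fold. Over all 28 member entries it was 2, the other being the weaker cry summit, whose replicate 3 entry is shared. Across all matched IDR entries 7.17% did. The values over all IDR entries keep such shared matches, so the 28 are the like set. The replicate summits of the 26 were 0 to 84 bp apart with a median of 20 bp, and the median over all IDR entries was 32 bp. At the 2 cry summits left out of the 26 they were 24 and 195 bp apart. Membership in the IDR set followed pooled signal, to which both replicates contribute, and 17 of its 5777 entries overlap no entry in at least 1 replicate list. The values are a description of these strongest entries.

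**Figure D3:**
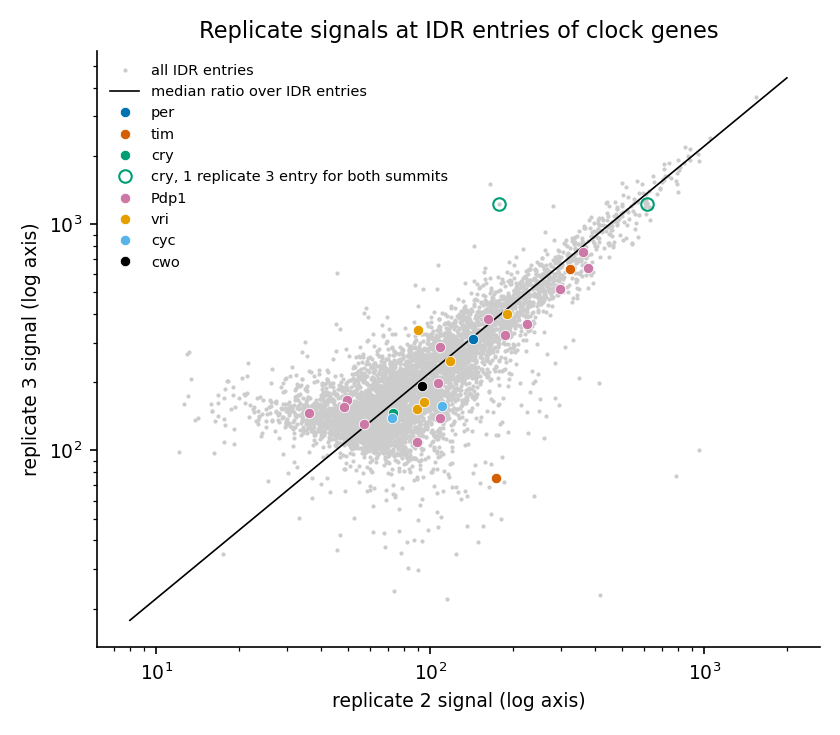
Signal in replicate 3 against replicate 2 (both log axes) for all IDR entries in grey and for entries at clock genes in colour, with the median ratio of 2.22 as a line and open circles for the cry summits that share 1 replicate 3 entry. The weaker tim summit lies far below the line, and 19 of the 26 filled points are within 0.57 of the line on the log2 scale. Of all matched IDR entries, those with a shared match kept, 76.4% are within 0.54 and 80.2% within 0.61.

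Clock loci are known for their E-boxes, and the CACGTG letters were therefore mapped against the peaks. The 8 genes with 1 kb on each side held 37 matches, and 7 of these lay inside an IDR entry. The sites nearest to a summit at per, tim, vri and Pdp1 are printed with 20 bp on each side in the direction of the gene, since they show how close the binding comes to the letters that CLK and CYC read. Capitals mark the E-box.
per, chrX:2685030-2685075, plus strand: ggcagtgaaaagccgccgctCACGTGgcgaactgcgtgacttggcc
tim, chr2L:3507397-3507442, minus strand: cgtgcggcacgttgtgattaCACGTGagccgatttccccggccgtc
vri, chr2L:5303332-5303377, plus strand: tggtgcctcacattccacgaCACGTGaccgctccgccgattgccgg
Pdp1, chr3L:7837060-7837105, minus strand: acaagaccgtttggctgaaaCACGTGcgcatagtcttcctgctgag
The per site, 530 bp upstream of the start and known as part of its circadian enhancer, was 297 bp from the summit and outside the IDR entry. The tim site was 275 bp from the main summit and inside the region. The vri site was 256 bp from a summit and the Pdp1 site 50 bp, both inside an entry. At cry no CACGTG was found in the gene or its flanks, and its entry was the strongest. At cwo, 9 sites were found, the nearest 267 bp from the summit, and none was inside the IDR entry.

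By share, 6 of the 24 distinct member intervals (25.0%) held CACGTG, against 6.86% of all 5376 distinct IDR intervals. Pdp1, with 5 of the 7 sites inside entries, weighs most in this. Its wide region of 2121 bp is 1 of the 6, and its sites lie 295 and 756 bp from the nearest summit. The median width was 430 bp over the 28 member entries and 486 bp over all IDR entries, counted per entry and not per distinct interval. Among the 6 member intervals with CACGTG, that of tim was 745 bp wide and that of vri 635 bp. The others, in Pdp1, ran from 280 to 2121 bp. The shares are not adjusted for width. In the windows of 50 bp on either side of the summits the letters were found at 1 of 28 member summits, against 1.23% of all 5777. Of the 16 promoters of 300 bp, from 250 bp before to 50 bp after a start, 2 held CACGTG, those of the most downstream tim start and of the first Pdp1 start, against 4.01% of 19253 promoters. A match is a description of letters and not of a factor's binding.

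The other motifs, searched on both strands, were the D-box type letters TTACGTAA with the variant TTATGTAA, the palindrome ACATGT, the homeodomain core TAATTA, the letters TAACA, the DREF site TATCGATA, the M1BP site GGTCACACT, the TATA letters TATAAA and the GAGA repeat GAGAGAG. No motif contains another, and GAGAGAG can overlap itself. At the 28 member summits TAACA was found in 8 windows, and in 24.8% of all IDR windows. TATAAA was found in 5 windows (19.3% of all), TAATTA in 3 (9.61% of all), ACATGT in 1 (2.37% of all) and GAGAGAG in 1 (2.44% of all). No member window held TTACGTAA (0.12% of all), TTATGTAA (1.26% of all), TATCGATA (2.46% of all) or GGTCACACT (1.21% of all). In the 16 promoters of 300 bp, TAACA was found in 7 (51.5% of all promoters) and TATAAA in 6 (42.2% of all). GAGAGAG was found in 5 (7.62% of all), TAATTA in 4 (18.9% of all) and ACATGT in 3 (7.03% of all). TTACGTAA was found in 1, upstream of the third Pdp1 start (0.42% of all). None held TTATGTAA (2.05% of all), TATCGATA (7.98% of all) or GGTCACACT (5.23% of all).

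The wider clock pathway was described with 44 further genes listed by role, of which 22 had an IDR summit at most 500 bp from a start, beside the 30.0% of all genes. Among IDR entries above the median signal the count was 9 of 44, beside 17.9% of all genes. The list of 44, too, was drawn up with earlier results of these data known. Genes that modify or degrade clock proteins stood at 11 of 14. They included sgg, the GSK-3 kinase gene that acts on TIM (899, with 275 in replicate 2 and 612 in replicate 3), mts, the catalytic subunit gene of protein phosphatase 2A (767, with 241 and 529), its regulatory subunit gene tws (416, with 163 and 249), slmb, the F-box gene for PER turnover (375, with 109 and 277), the ubiquitin protease gene Usp8 (341, with 95.8 and 241) and the ubiquitin ligase gene ctrip (306, with 77.5 and 214). The mts, slmb and Usp8 summits were also within 500 bp of starts of Rack1, CG5793 and Trm7-34, in that order. The casein kinase gene dco, known as doubletime, had a strongest pooled candidate of 123 and no IDR summit near a start.

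Transcription modulators had 4 of 6, led by the nuclear receptor gene Eip75B (917, with 293 in replicate 2 and 616 in replicate 3) and the CBP coactivator gene nej (412, with 153 and 266). RNA-binding and translation genes had 3 of 5. Light input genes had 2 of 7 (28.6%), close to the 30.0% of all protein-coding genes. The counts do not allow for the number of starts per gene, which differs, with 1 at Pdf and 11 at sgg. A gene with more starts has more chances to be counted. Output genes had 2 of 12 (16.7%). Among them Pdf, the neuropeptide of clock neurons, had no entry near its start in any of the lists, and its receptor gene Pdfr had only a replicate 2 candidate of 12.0. The 8 pathway genes with the highest signals are in the classes of modifiers and transcription modulators. The median signal of the bound genes was 306 for 11 modifiers and 332 for 4 transcription modulators. It was 217 for 2 light input genes, 191 for 3 RNA-binding and translation genes and 178 for 2 output genes.

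**Figure D4:**
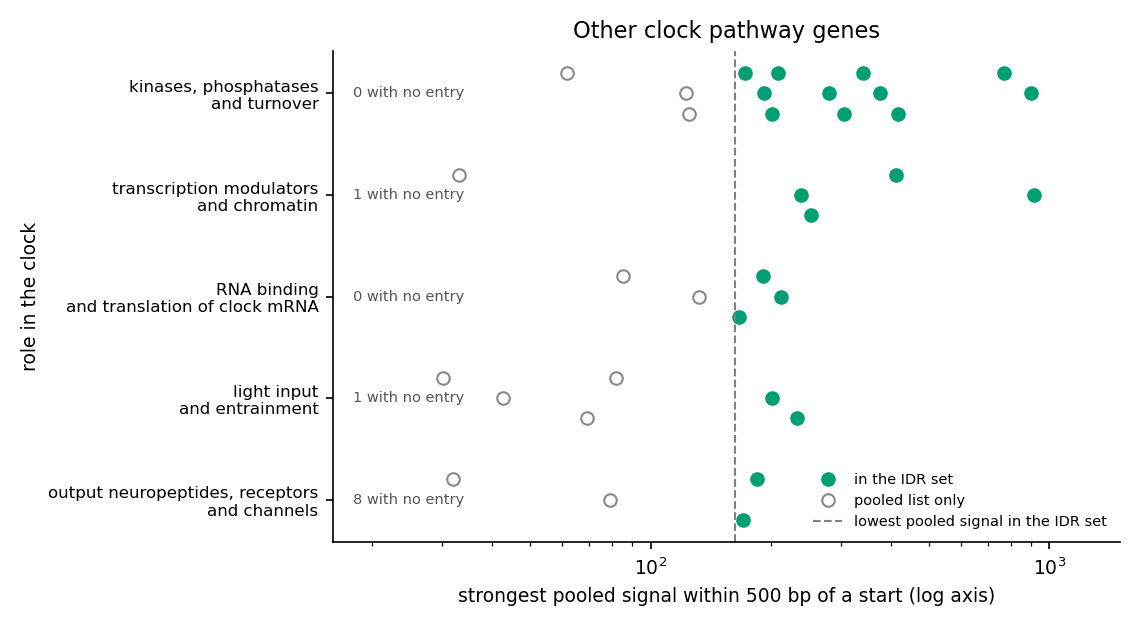
Strongest pooled signal within 500 bp of a start (log axis) for 44 other clock pathway genes by role, filled when in the IDR set and open when in the pooled list only. The number of genes without such an entry in the pooled list is written at the left. The lowest signal of the IDR set is a dashed line. Modifiers have 11 of 14 filled points and 0 genes without a pooled entry, and output genes have 2 filled points and 8 genes without a pooled entry. Of all protein-coding genes, 30.0% have an IDR summit this near a start.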

How the data were processed

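ChIP-seq of CG11617 tagged with GFP was represented by 2 replicates of 1 group. The authors deposited narrowPeak lists on dm6, per the deposited notes: candidate entries for each replicate and for the pooled replicates (30000 each) and the optimal IDR set (5777). Column 7 is the signal value of the authors' peak caller. The deposited −log10 q values are capped in each list and were read only to see that all 28 clock entries of the IDR set are at the cap. The peak caller, aligner and IDR threshold were not given in the sources used here. Without read counts depth is unknown, and no interval is given. The 4 dm3 lists were not used.

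Starts came from Ensembl release 115 (BDGP 6.54) and sequence from the RefSeq Release 6 genome, whose arms hold every entry. Each IDR entry was matched in each replicate to the overlapping entry of nearest summit. A promoter entry has its summit within 500 bp of a start. The 44 pathway genes all matched a symbol, 1 by an older one. Named are the 8 members, genes sharing their promoter summits, the 8 pathway genes of highest signal with dco, Pdf and Pdfr, and the genes next to cry in order; genes at peaks just outside the members were named after their values were seen. Members and lists were chosen with earlier results of these data known, and no test was made. The window search was tested on simulated data. Python 3.11.15, numpy 2.4.6 and pandas 2.3.3 were used.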

Additional observations from a re-analysis of the deposited data

How the results depend on the processing

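The count of clock genes with an IDR summit near a start was 6. It was 5 with a window of 250 bp, where Pdp1 dropped out. It was 6 with 1000 bp, with any overlap or among IDR entries above the median signal. Starts of every transcript type of protein-coding genes also gave 6. That setting added no starts of non-coding genes and left the count over all genes at 4178 of 13945, so it is no separate check. Leaving out 1 replicate gave 6 to 7, the 7 with replicate 2 alone, which added Clk. The pathway count of 22 ran from 18 to 20 with 1 replicate and from 19 to 22 with other windows, and it was 9 among IDR entries above the median signal, an alternative chosen after seeing the data. With 250 bp the strongest entry of cry was 238 and that of cyc 227, because the stronger summits lie farther away, and Pdp1 had no value. The rank of the strongest entry as a percent of its list was 3.94% for per in the pooled list and 4.08 to 4.18% in single replicates, and 5.76% and 5.91 to 5.94% for vri. For cry it was 0.16% in the pooled list and 0.12 to 0.17% in single replicates, and for tim 0.87% and 0.83 to 0.95%. For Pdp1 it was 0.79% and 0.52 to 0.91%, and for cyc 8.93% and 6.64 to 12.0%. Of these 6 genes, the replicates differed most at cyc. When the highest overlapping replicate entry was used for ratios, the weaker cry summit went from 1.63 (not a ratio of its own, since its replicate 3 entry is that of the main summit) to -0.15 and the weaker tim summit from -2.34 to -0.17, since both then took the value of the main summit beside them. No paired analysis was possible because there is 1 group and no test.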
